A study of Mus musculus with 8 samples.

Results

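Microglia are the resident macrophages of the brain, and 33 genes that mark them were followed in whole cerebellum of Capicua mutant mice. The genes were listed by name, and every one of the 33 was found among the 20352 genes measured, from probe sets that carry its symbol alone (Spi1 under its older symbol Sfpi1). They comprise 10 homeostatic genes, 6 lineage genes, 12 phagocytic genes (7 receptors and adaptors, 5 of the phagosome and lysosome) and 5 genes of microbial pattern recognition. The mutants carry the genotype label Cic-L-null, 4 samples at 28 days, and the controls are 4 wild-type samples of the same age. Both groups share a mixed Swiss Webster (CD-1) background, and neither received a treatment that the labels name. Each sample of total RNA was read on 1 array of the Affymetrix Mouse Gene 1.0 ST design. The labels number the samples but do not say that each is a separate mouse, so p-values measure the spread between these samples. The labels do not say whether the mutation removes Capicua from every cell or which transcripts remain, and they name a different RNA extraction for wild-type replicate 1 (Trizol with an RNeasy column) than for the other 7 arrays.

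Microglia descend from yolk sac progenitors and depend on the growth factor receptor Csf1r and on the transcription factor PU.1, which Spi1 encodes. In undisturbed brain they show a homeostatic signature of surface receptors, P2ry12, Tmem119 and Cx3cr1 among them, with which they sense nucleotides and neuronal signals. When they meet debris, antibody or microbes they use Fc receptors, complement receptors, Trem2 and Toll-like receptors and digest the cargo in lysosomes, and in many disease models the homeostatic genes go down while lysosomal and phagocytic genes go up. Capicua is a transcriptional repressor that forms a complex with ataxin-1.

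All values are log2 RMA values, a gene's value is the mean over its probe sets, and all differences are Cic-L-null minus wild-type. Probe sets bind with different strength, so the level of a gene is not set against that of another gene. Cic itself had a log2 value of 7.54 ± 0.061 in Cic-L-null against 8.78 ± 0.28 in wild-type cerebellum (SD, n = 4 each), a difference of -1.25 (SE 0.12, limma adjusted p = 0.00818) without overlap. Gene values correlated between 0.9913 and 0.9954 over all pairs of arrays. As a guide to dim genes, the 95th percentile of 985 olfactory receptor genes lay at 6.21, and 68.8% of all genes had a mean at or above it. Of the 33 microglia genes, 23 lay at or above this dim limit. The 10 below it were P2ry12, Gpr34, Fcrls, Spi1, Aif1, Ptprc, Tlr2, Tlr4, Tlr7 and Cd14. Markers of Purkinje and granule cells, which define the labelled tissue, were all above the dim limit.

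The microglia genes showed no called difference between mutant and wild-type cerebellum. With limma, fitted over all 20352 genes and called at an adjusted p under 0.05, 0 of 33 were called, where 0.138% of all genes were called (28 genes). The smallest adjusted p was 0.203, for Mpeg1. At an unadjusted p under 0.05, 6 of the 33 (18.2%) passed, 3 higher and 3 lower, against 9.26% of all genes. The 3 higher were Mpeg1, Lgmn and Ly86, and the 3 lower were Fcrls, Cd53 and Cd33. Without moderation of the variances, 0 of 33 were called as well.

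In all, 17 of the 33 genes lay above 0 and 16 below, with a median difference of 0.0013, and the median of all genes was -0.0071 with 47.0% of them above 0. The differences ran from -0.44 for Fcrls to 0.34 for Mpeg1, and 29 of the 33 were smaller than 0.2 in size. The 95% interval of the difference lay within 0.5 log2 units of 0 for 31 of the 33 genes and within 1 unit for all 33. The 2 with a wider reach were Fcrls (-0.78 to -0.11) and Mpeg1 (0.15 to 0.52). In bulk cerebellum, fewer microglia and less RNA of a gene per microglial cell cannot be told apart.

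**Figure D1:**
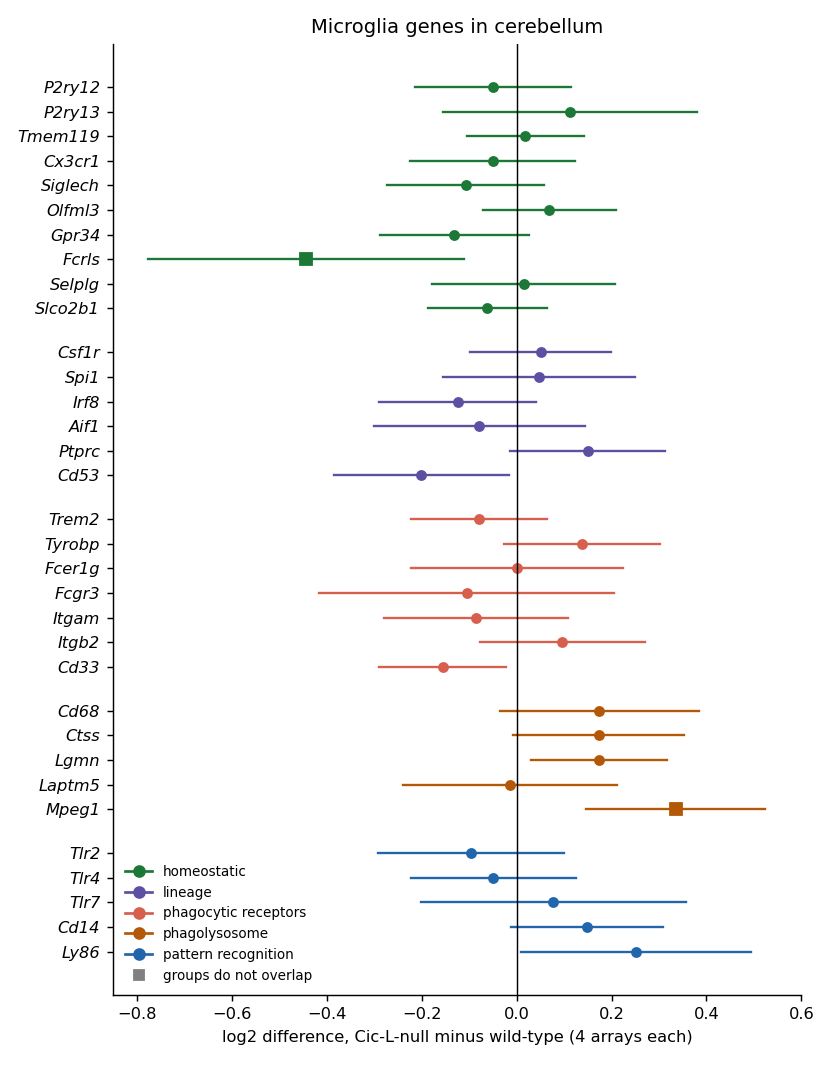
Differences of the 33 microglia genes between cerebellum of 4 Cic-L-null and 4 wild-type samples, in log2 units, grouped by role. Points are the fitted differences and lines their 95% intervals from limma. Squares mark Fcrls and Mpeg1, the 2 genes whose groups did not overlap, and 0 of 33 genes were called.

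Homeostatic genes lay slightly below 0 and phagocytic genes slightly above it. Of the 10 homeostatic genes, 6 lay below 0 and 4 above, with a median of -0.050, whereas 7 of the 12 phagocytic genes lay above 0, with a median of 0.049. Neither list held a called gene, and the contrast depended on how genes were measured. The homeostatic median was 0.015 among genes above the dim limit, which leaves out P2ry12, Gpr34 and Fcrls, and -0.0044 without Cic-L-null replicate 1. The phagocytic median was -0.020 when each gene took the median over its probe sets instead of the mean. Within the phagocytic genes, the receptors had a median of -0.079 and the phagolysosomal genes one of 0.17.

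P2ry12, the ADP receptor with which microglial processes home to injury, had log2 values of 5.79, 6.08, 6.02 and 5.91 in Cic-L-null cerebella, against 6.08, 5.91, 5.98 and 6.04 in wild-type cerebella. The groups overlapped throughout, with a difference of -0.049 (SE 0.074, limma adjusted p = 0.903). Of its 7 probe sets, 3 lay below the dim limit and 5 had a negative difference. Its close relative P2ry13, also a nucleotide receptor, differed by 0.11 (SE 0.12), and wild-type replicate 4 stood low at 6.55. Without that array the difference was -0.011.

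Tmem119 is a membrane protein used to tell microglia from infiltrating macrophages. It had 7.37, 7.40, 7.32 and 7.40 in Cic-L-null, against 7.29, 7.43, 7.34 and 7.36 in wild-type cerebella. The 2 sets of values cover nearly the same range, and the 95% interval of the difference ran from -0.10 to 0.14. Cx3cr1, the receptor for neuronal fractalkine, had 7.76, 8.03, 7.80 and 8.02 in Cic-L-null, against 8.004, 8.01, 7.95 and 7.84 in wild-type cerebella. Mutants 1 and 3 lay below all wild-type samples, mutants 2 and 4 above them, and the difference was -0.051 (95% interval -0.22 to 0.12). All 4 of its probe sets had a small negative difference.

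Fcrls, an Fc receptor-like gene of mouse microglia, was the homeostatic gene with the lowest difference. Its log2 values were 5.25, 5.27, 5.27 and 5.41 in Cic-L-null, against 5.44, 6.21, 5.46 and 5.85 in wild-type cerebella. All mutants lay below all wild-type samples, but wild-type replicates 1 and 3 lay only just above the mutants and replicates 2 and 4 well above. The difference was -0.44 (SE 0.15, limma adjusted p = 0.361), and -0.29 without wild-type replicate 2. Each of its 8 probe sets had a negative difference (median -0.40), although 5 of them lay below the dim limit. With only the probe sets above that limit the difference was -0.14, and with the brighter part it was -0.23.

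The other homeostatic genes differed by less than 0.14 in size, with overlapping groups. Siglech, a sialic acid binding lectin, differed by -0.11 (SE 0.075), with 6 of 8 probe sets lower, and the orphan receptor Gpr34 by -0.13 (SE 0.071) with 4 of 6 lower. Slco2b1, an organic anion transporter, differed by -0.061 (SE 0.056). Olfml3, a secreted olfactomedin protein, differed by 0.069 (SE 0.063), and Selplg, the selectin ligand PSGL-1, by 0.015 (SE 0.087).

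Genes of lineage and survival also lay close to 0. Csf1r, the receptor for CSF1 and interleukin 34 on which microglial survival depends, had 8.06, 8.21, 8.17 and 8.30 in Cic-L-null, against 8.22, 8.05, 8.14 and 8.11 in wild-type cerebella. These values overlapped, with a difference of 0.051 (95% interval -0.098 to 0.20). Of its 23 probe sets, 16 were higher, and 1, probe set 10456084, had no overlap with 0.55 (SE 0.14, limma adjusted p = 0.545 over all probe sets). Its ligands Csf1 and Il34 differed by -0.012 (SE 0.059) and 0.12 (SE 0.084).

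Spi1, which encodes PU.1, differed by 0.048 (SE 0.091) at values below the dim limit. Irf8, a partner of PU.1 on microglial genes, differed by -0.12 (SE 0.074), with 9 of 11 probe sets lower. Aif1, the cytoskeletal protein stained as Iba1, differed by -0.079 (SE 0.10), and only 3 of its 10 probe sets lay above the dim limit. With those 3 the difference was 0.14, from values of 0.57, -0.041 and -0.11 for the single probe sets. Ptprc, the pan-leukocyte phosphatase CD45, had 6.04, 6.05, 6.14 and 6.08 in Cic-L-null, against 5.93, 6.12, 5.81 and 5.86 in wild-type cerebella, a difference of 0.15 (SE 0.074, limma adjusted p = 0.589). Wild-type replicate 2 overlapped the mutants and the other 3 wild-type arrays lay below them. Of its 33 probe sets, 18 lay below the dim limit, and the difference was 0.094 with those above it, 0.056 with the brighter part and 0.0086 with the median of all.

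Cd53, a leukocyte tetraspanin, was the lineage gene with the lowest difference. It had 6.37, 6.37, 6.30 and 6.68 in Cic-L-null, against 6.63, 6.59, 6.60 and 6.70 in wild-type cerebella. Mutants 1, 2 and 3 lay below all wild-type samples, whereas mutant 4 lay at the upper end of the wild-type range. The difference was -0.20 (SE 0.083, limma adjusted p = 0.483), with 7 of 8 probe sets lower, and -0.28 without Cic-L-null replicate 4.

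PU.1 binds purine-rich sites, often close to the start site in myeloid genes that lack a TATA box. The promoters of the microglia genes were therefore read for the exact letters GAGGAAGT of such a site, and other PU.1 sites were not searched. Since Capicua is the altered factor, the promoters were also read for the Capicua octamers TGAATGAA and TGAATGGA. Promoters are those of RefSeq on GRCm38.p6, 250 bases before to 50 after each start site, with both strands searched, and 23 of the 33 genes had an entry. The PU.1 letters stood in 3 of the 23 (13%), Cd53, Ctss and Slco2b1, against 3.69% of 27025 genes with a promoter. The Capicua octamers stood in 0 of the 23 against 2.85% of genes, which says only that these letters are not in these windows. The 3 matches are shown because each lies within 14 bases of the start site, written 5′ to 3′ on the strand of the gene, with the PU.1 letters or their reverse complement in capitals. Cd53 lies at chr3:106790125-106790154 on the minus strand, Ctss at chr3:95526773-95526802 on the plus strand and Slco2b1 at chr7:99711316-99711345 on the minus strand.
Cd53: cactcagtctcACTTCCTCactcttctcgc
Ctss: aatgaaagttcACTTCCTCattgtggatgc
Slco2b1: agtccatgaggGAGGAAGTgactcatcttc
The 3 genes had differences of -0.20, 0.17 and -0.061.

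Phagocytic receptors and their adaptors lay on both sides of 0, 3 above and 4 below. Trem2, a lipid receptor of microglia, had 7.18, 7.36, 7.28 and 7.25 in Cic-L-null, against 7.32, 7.32, 7.46 and 7.27 in wild-type cerebella. Its groups overlapped, with a difference of -0.079 (95% interval -0.22 to 0.065). Tyrobp is the adaptor DAP12 through which Trem2 signals. It had 6.43, 6.62, 6.70 and 6.71 in Cic-L-null, against 6.41, 6.56, 6.51 and 6.44 in wild-type cerebella. Mutants 2, 3 and 4 lay above all wild-type samples and mutant 1 among them. The difference was 0.14 (SE 0.074, limma adjusted p = 0.642), or 0.079 with the median of its probe sets. The receptor and its adaptor had opposite signs with intervals that both include 0.

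Fcer1g, the common gamma chain of Fc receptors, differed by 0.0013 (SE 0.10). Fcgr3, an Fc receptor for IgG whose sequence resembles that of its family members, differed by -0.11 (SE 0.14) with 1 mutant, replicate 2, far above the other 3. Itgam and Itgb2 form the complement receptor CR3 together, and they differed by -0.086 (SE 0.087) and 0.097 (SE 0.079). Cd33, a sialic acid receptor, had 6.31, 6.18, 6.24 and 6.22 in Cic-L-null, against 6.43, 6.29, 6.39 and 6.46 in wild-type cerebella. Only mutant 1 reached into the wild-type range, and the difference was -0.16 (SE 0.060, limma adjusted p = 0.445), the lowest of the phagocytic genes. Of its 10 probe sets, 7 lay below the dim limit, and the other 3 gave -0.10.

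The phagolysosomal genes lay mostly above 0, 4 of 5 with a median of 0.17, and 0 of 5 were called. Mpeg1, which encodes perforin-2, a pore-forming protein of macrophages, had 7.06, 7.30, 6.91 and 7.21 in Cic-L-null, against 6.82, 6.79, 6.84 and 6.69 in wild-type cerebella. All mutants lay above all wild-type samples, with mutant 3 closest to them. The means were 7.12 ± 0.17 in Cic-L-null and 6.79 ± 0.067 in wild-type cerebella (SD, n = 4 each), a difference of 0.34 (SE 0.085, limma adjusted p = 0.203) or 1.26-fold. It rests on 1 probe set. Groups that do not overlap occurred in 2 of the 33 microglia genes (6.06%), Mpeg1 and Fcrls, and in 5.94% of all genes.

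Lgmn, the asparaginyl endopeptidase legumain, had 10.74, 10.96, 10.84 and 10.93 in Cic-L-null, against 10.76, 10.65, 10.69 and 10.67 in wild-type cerebella. Mutants 2, 3 and 4 lay above all wild-type samples, and mutant 1 lay between wild-type replicates 1 and 3. The difference was 0.17 (SE 0.064, limma adjusted p = 0.417) or 1.13-fold, and all 14 probe sets were higher and all lay above the dim limit.

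Ctss, the lysosomal protease cathepsin S of myeloid cells, had 8.74, 8.999, 8.85 and 8.99 in Cic-L-null, against 8.68, 8.58, 8.86 and 8.77 in wild-type cerebella. Mutants 2 and 4 lay above the wild-type range, and mutants 1 and 3 lay within it. The difference was 0.17 (SE 0.081, limma adjusted p = 0.563), with 8 of 9 probe sets higher, and 0.27 with their median. Cd68, a lysosomal membrane glycoprotein used as a stain for phagocytic microglia, had 6.99, 7.28, 7.18 and 7.31 in Cic-L-null, against 7.15, 6.79, 7.10 and 7.03 in wild-type cerebella. The order of the mutants was close to that in Ctss, with replicates 2 and 4 high and replicate 1 low, and the difference was 0.17 (SE 0.095, limma adjusted p = 0.646) with 7 of 8 probe sets higher. It was 0.020 with the brighter part of its probe sets, 0.091 with their median and 0.0997 without wild-type replicate 2.

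Laptm5, a lysosomal membrane protein of blood-derived cells, did not lie with them. It differed by -0.014 (SE 0.10), and 10 of its 12 probe sets were lower. Ctsz, cathepsin Z, a lysosomal protease gene of microglia that is not among the 33, lay on the other side. It had 8.92, 8.88, 8.84 and 8.80 in Cic-L-null, against 9.01, 9.12, 9.10 and 9.12 in wild-type cerebella, a difference of -0.23 (SE 0.056, limma adjusted p = 0.192). All mutants lay below all wild-type samples, and 7 of 8 probe sets were lower.

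**Figure D2:**
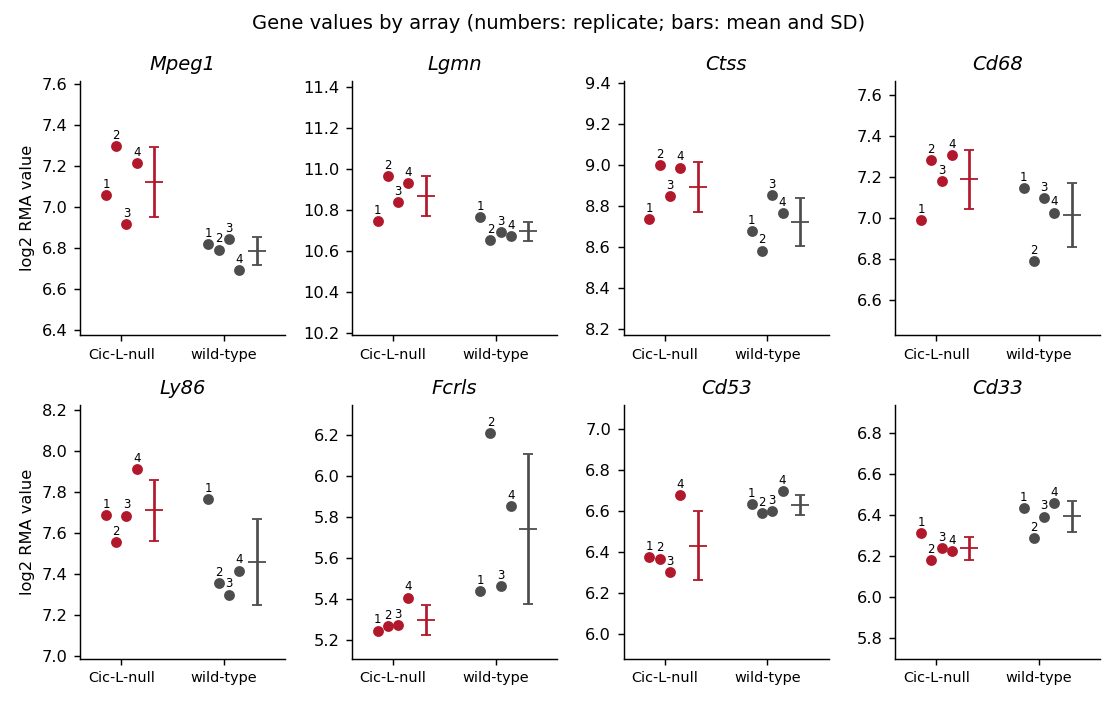
Log2 RMA values of 8 microglia genes in 4 Cic-L-null (left, red) and 4 wild-type cerebella (right, grey). Digits are replicate numbers, bars are the mean and SD, and each panel spans the same number of log2 units. Mpeg1 and Fcrls show no overlap between the groups, Lgmn, Ctss and Cd68 have mutants 2 and 4 on top, and wild-type replicate 1 stands apart in Ly86.

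Pattern recognition genes were mostly dim, 4 of 5 below the dim limit. The exception, Ly86, encodes MD-1, which accompanies the Toll-like receptor homologue Cd180. It had 7.69, 7.55, 7.68 and 7.91 in Cic-L-null, against 7.76, 7.35, 7.30 and 7.41 in wild-type cerebella. All mutants lay above wild-type replicates 2, 3 and 4, while wild-type replicate 1, the array with the other extraction label, lay higher than 3 of the mutants. The difference was 0.25 (SE 0.11, limma adjusted p = 0.512) and 0.35 without that array (adjusted p = 0.151), but 0.038 when the median over its 5 probe sets was taken and 0.082 with their brighter part. Its partner Cd180 differed by 0.025 (SE 0.095).

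The co-receptor gene Cd14, which passes lipopolysaccharide to Tlr4, differed by 0.15 (SE 0.072), with all 3 probe sets below the dim limit. Tlr4 differed by -0.049 (SE 0.078), Tlr2, a receptor for bacterial lipoproteins, by -0.096 (SE 0.089) and Tlr7, a sensor of single-stranded RNA, by 0.078 (SE 0.13). Each had overlapping groups, and the 95% intervals of all 4 dim genes include 0.

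Single probe sets gave larger values than the gene means. The 33 genes have 310 probe sets, of which 14 (4.52%) had groups that did not overlap, 9 higher and 5 lower, against 4.38% of all 212097 probe sets with 1 symbol. With limma over all of these probe sets, 0 of the 310 were called, against 2 of all 212097. At an unadjusted p under 0.05, 21 of the 310 passed, but the share of all probe sets was not counted. The smallest limma adjusted p was 0.390, for probe set 10557886 of Itgam. Its means were 4.07 in Cic-L-null and 5.57 in wild-type cerebella, both below the dim limit, a difference of -1.50 (SE 0.29). The other 31 Itgam probe sets had a median of -0.022.

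In Tyrobp, probe set 10551889 had means of 5.85 in Cic-L-null and 4.90 in wild-type cerebella, both below the dim limit. It differed by 0.94 (SE 0.27), and the other 6 had a median of 0.042. In Itgb2, probe set 10364276 differed by 0.72 (SE 0.15), while probe set 10364269 differed by -0.67 (SE 0.21), both without overlap. In these 3 genes single probe sets stand out from their neighbours, whereas in Lgmn all 14 share a sign and the largest difference was 0.36. On GRCm38.p6, 5 of the 33 genes lie on the chromosome of Cic (Siglech, Slco2b1, Tyrobp, Itgam and Cd33), 2 of them, Tyrobp and Cd33, within 20 Mb of it. The part of the chromosome segment in these values was not tested.

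**Figure D3:**
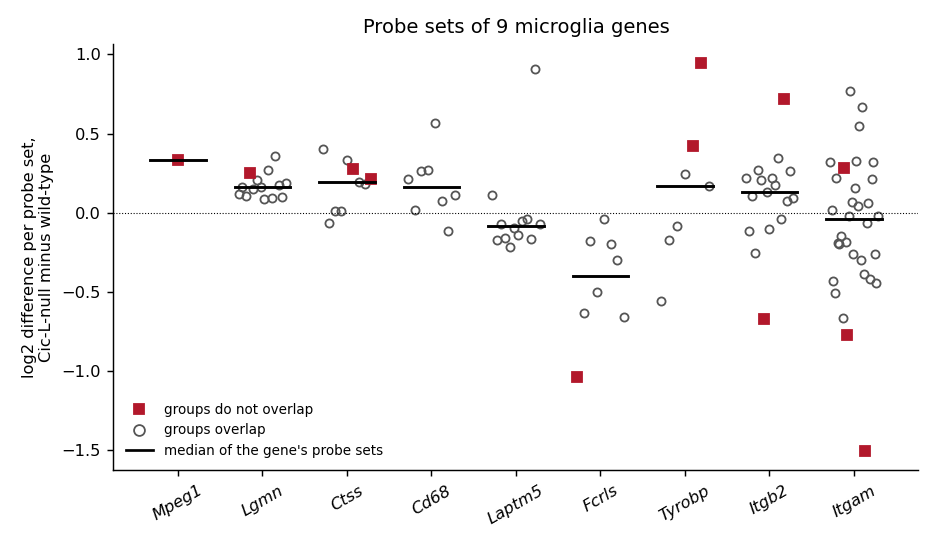
Differences of single probe sets of 9 microglia genes, Cic-L-null minus wild-type, in log2 units. Filled squares are probe sets whose groups do not overlap, open circles the others, and bars the median of each gene. The 14 Lgmn probe sets all lie above 0 and the 8 of Fcrls all below, while Itgam, Itgb2 and Tyrobp have single probe sets far from their median.

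Samples of the same group also differed among themselves. Among mutants, replicate 2 had the highest value of 14 of the 33 genes (42.4%, against 28.5% of all genes) and replicate 4 that of 11 (33.3%, against 22.1%), whereas replicate 1 had the lowest value of 14 (42.4%, against 23.9%). Among wild-type samples, replicate 2 had the lowest value of 16 genes (48.5%, against 18.5%) and the highest of 10 (30.3%, against 18.7%). The mean of the 5 phagolysosomal genes deviated from its mean over the 8 arrays by -0.052, 0.22, -0.0027 and 0.17 in Cic-L-null replicates 1 to 4, against -0.016, -0.21, -0.023 and -0.092 in wild-type replicates 1 to 4. Mutants 2 and 4 were thus high and wild-type replicate 2 was low, while mutant 3 lay just above the wild-type range and mutant 1 within it. The median difference of the 5 genes was 0.14 without mutant 2, 0.14 without mutant 4 and 0.13 without wild-type replicate 2.

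The mean of the 10 homeostatic genes deviated by -0.077, 0.019, -0.063 and -0.0039 in Cic-L-null, against 0.032, 0.055, 0.045 and -0.0060 in wild-type replicates 1 to 4. Mutants 1 and 3 had the lowest values, and mutants 2 and 4 overlapped the wild-type samples. Mutants 2 and 4 thus lay above mutants 1 and 3 in both groups of genes.

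**Figure D4:**
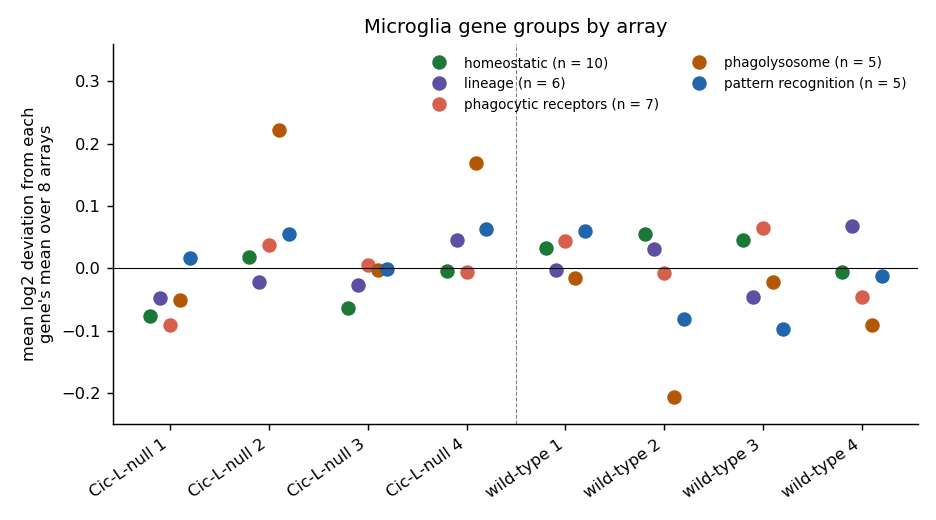
Mean deviation of 5 groups of microglia genes from each gene's mean over the 8 arrays, in log2 units, for each Cic-L-null array (left of the dashed line) and each wild-type array (right). The phagolysosomal genes are highest in Cic-L-null replicates 2 and 4 and lowest in wild-type replicate 2.

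Related lists, set out by name beside the 33, held no called gene either. Of 18 further microglia genes, 7 lay above and 11 below 0, with a median of -0.038. The complement genes C1qa, C1qb and C1qc, whose products tag synapses and debris, differed by 0.14 (SE 0.069), 0.048 (SE 0.084) and -0.15 (SE 0.087). Besides Ctsz, the smallest p belonged to Ltc4s, the leukotriene C4 synthase gene, at -0.30 (SE 0.11).

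Of 18 genes that go up in microglia of degenerating brain, 9 lay above and 9 below 0, with a median of -0.012. Apoe, a lipid carrier that astrocytes make in large amounts, lies within 20 Mb of Cic, and the part of that chromosome segment was not tested. It had 12.28, 12.52, 12.17 and 12.42 in Cic-L-null, against 12.12, 12.09, 11.99 and 11.98 in wild-type cerebella. The groups did not overlap, with a difference of 0.30 (SE 0.081, limma adjusted p = 0.233). Spp1, osteopontin, which neurons of the hindbrain also make, lay the other way, at -0.41 (SE 0.10, limma adjusted p = 0.194), also without overlap. Of 20 cytokine and activation genes, 15 lay below the dim limit, and the list had a median of -0.049. The smallest p there belonged to Cd74, the invariant chain of MHC class II, at -0.17 (SE 0.098), and to Ccl2, a monocyte chemokine, at 0.10 (SE 0.071).

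Of 25 ligands and partners of the microglial receptors, 13 lay above and 12 below 0, with a median of 0.00060. The fractalkine gene Cx3cl1 differed by 0.020 (SE 0.054) and the kinase gene Syk, which acts below Tyrobp and Fcer1g, by -0.085 (SE 0.066). Tgfbr1, a receptor chain for TGF-beta, which maintains the homeostatic state, differed by 0.21 (SE 0.072, limma adjusted p = 0.379), with all 13 probe sets higher. Entpd1, the ectonucleotidase CD39, differed by 0.23 (SE 0.092, limma adjusted p = 0.471), with 7 of 11 probe sets higher. Its probe set 10463080 differed by 2.02 (SE 0.57) at a wild-type mean of 4.59, and the other probe sets had a median of 0.13. In both genes wild-type replicate 1 was high, within the mutant range for Tgfbr1 and above it for Entpd1, and the other 3 wild-type samples lay below all mutants.

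Many of the 33 genes are also expressed by other leukocytes. Of 11 markers of border macrophages, 7 lay above 0 and 5 were below the dim limit, with a median of 0.0067. Their mean level per array ran from 5.98 to 6.10 in Cic-L-null, against 5.99 to 6.07 in wild-type cerebella. Among them, the reductase gene Cbr2 differed by 0.20 (SE 0.080) and the mannose receptor gene Mrc1 by 0.15 (SE 0.092). Of 12 monocyte and neutrophil markers, 8 were below the dim limit, and their mean level ran from 5.42 to 5.56 in Cic-L-null, against 5.43 to 5.63 in wild-type cerebella. Itgal and Csf3r had the smallest p there, at -0.15 (SE 0.077) and -0.13 (SE 0.078). Of 10 lymphocyte markers, 8 were dim, with means from 5.49 to 5.57 in Cic-L-null, against 5.396 to 5.68 in wild-type cerebella, and Nkg7 and Cd79a differed by -0.14 (SE 0.060) and -0.16 (SE 0.10). The part of these cells in the values of the microglia genes was not tested.

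The mean levels of lists for some other cell types of the tissue did separate by genotype, although 0 of their genes were called. The smallest limma adjusted p was 0.104 among mature oligodendrocyte markers (Mobp) and 0.147 among those of astrocytes and Bergmann glia (Gdf10). All 9 markers of mature oligodendrocytes lay below 0, with a median of -0.14, and their mean level ran from 10.36 to 10.47 in Cic-L-null, against 10.56 to 10.64 in wild-type cerebella. Markers of astrocytes and Bergmann glia had 9 of 10 below 0 and a median of -0.11, with means from 9.83 to 9.88 in Cic-L-null, against 9.92 to 10.04 in wild-type cerebella. The microglia genes, with means from 6.72 to 6.82 in Cic-L-null, against 6.75 to 6.80 in wild-type cerebella, did not separate in this way. Endothelial markers had a median of -0.13 with 7 of 9 below 0, and neurons of the cerebellar cortex one of -0.0023 with 5 of 9. Reference genes had a median of -0.030 with 8 of 9 below 0. Within these lists the smallest p belonged to Mobp at -0.30 (SE 0.060), Trf at -0.33 (SE 0.076), Gdf10 at -0.33 (SE 0.073), S100b at -0.36 (SE 0.090), Itm2a at -0.39 (SE 0.090), Cldn5 at -0.27 (SE 0.070), Cbln3 at 0.11 (SE 0.059), Pcp2 at 0.12 (SE 0.11) and the reference genes Rpl13a at -0.34 (SE 0.067) and Pgk1 at -0.14 (SE 0.081).

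**Figure D5:**
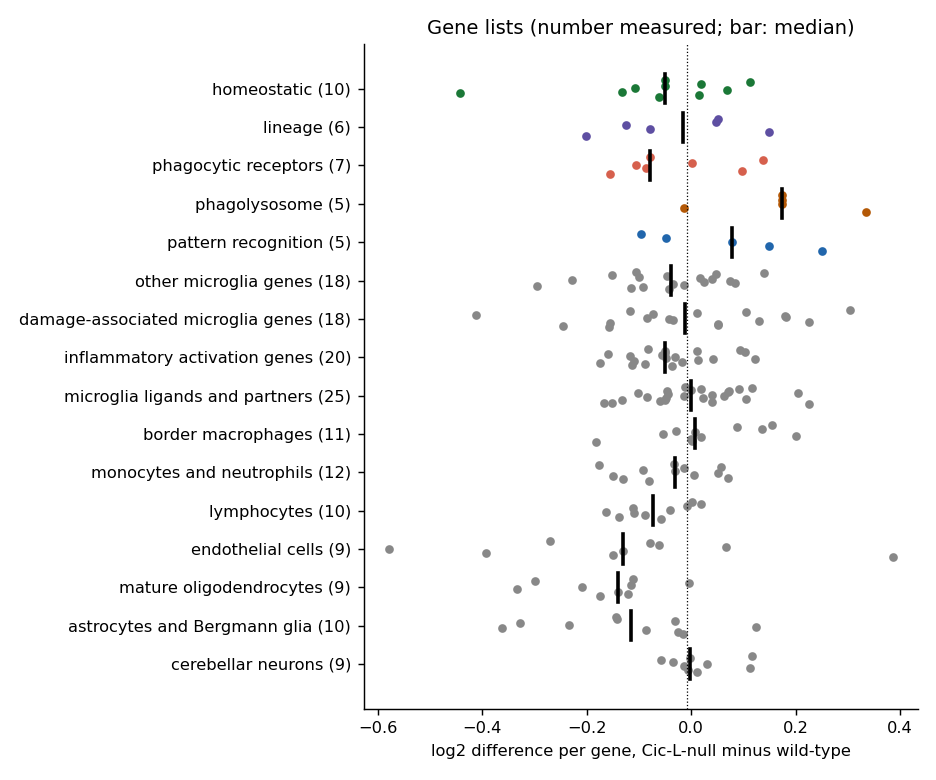
Differences of single genes, Cic-L-null minus wild-type in log2 units, for the 5 groups of microglia genes (colours) and 11 other lists (grey). Bars are list medians, the dotted line is the median of all genes (-0.0071), and digits give the number of genes measured. The phagolysosomal genes have a median of 0.17 and the mature oligodendrocyte markers one of -0.14.

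The meninges and choroid plexus list had a median of -0.23, where the smallest p belonged to Igf2 (-0.22, SE 0.068) and Col1a1 (-0.24, SE 0.079), and the 3 measured red blood cell genes had one of 0.13, with Alas2 at 0.50 (SE 0.16) and Hbb-b1 at -0.45 (SE 0.22). The part of blood and surface tissue in the microglia values was not tested.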

How the data were processed

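The deposited table holds log2 values that the authors made by RMA; the submitters' processing notes name Affymetrix Power Tools. No version and no genome build is given in the sources used here. It lists 241576 probe sets for 8 arrays. Groups and replicate numbers come from the titles. Of the probe sets, 212097 carry 1 gene symbol in the array's annotation, 4475 several and 25004 none, and outdated symbols were replaced through GRCm38.p6 (17621 current, 2742 replaced, 53 kept). A gene was given the mean over its probe sets. The number of arrays limits the precision.

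Groups were compared with limma 3.58.1 in R 4.3.3 (lmFit, eBayes without trend, two-sided, Benjamini-Hochberg over 20352 genes, no filter on dim genes, group as the only term), after tests on simulated data. Intervals come from the same fit and cover 95%. The covariate of Y-linked genes used Kdm5d, Eif2s3y and Uty. The microglia genes, the other lists and their role groups were chosen with earlier results of these data known, so no list was tested as a set. Named are all 33 genes, Cic, and from each other list the 2 with the smallest p. C1qa, C1qb, C1qc, Cd180, Csf1, Il34, Cx3cl1 and Syk and probe set 10364269 were added after their values were seen. Other probe sets are named, by the largest difference, for some but not all of the genes whose probe sets disagree in sign. Alternatives covered the combination of probe sets, the dim limit, normalisation, variance model, array weights, a replicate block, the Y-linked covariate, the threshold and each array left out. Lists of fewer genes than planned leave out members not analysed here.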

Additional observations from a re-analysis of the deposited data

Results flagged for a closer look

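Single arrays stood far from the other 3 of their group in 6 of the 66 sets of 4 values that the 33 microglia genes give, and chance alone marks about 1 in 20. Fcgr3 reached 6.94 in Cic-L-null replicate 2, against 6.29 to 6.35 in the other mutants, and without that array its difference was -0.26. Itgam was low in the same array at 6.395. Cic-L-null replicate 3 was low for Olfml3 at 7.74 and high for Fcer1g at 6.99. Wild-type replicate 4 was low for P2ry13 at 6.55 and for Fcer1g at 6.52. Without wild-type replicate 4 the difference of Fcer1g was -0.10, and without Cic-L-null replicate 3 it was -0.054.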

How the results depend on the processing

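Under all 20 alternatives 0 of the microglia genes were called, with the smallest adjusted p at 0.102 for Mpeg1 without Cic-L-null replicate 3. Under these alternatives 21 of the 33 genes kept their sign. The count of all genes called was 28, and 2 with the median of the probe sets, 12 with their brighter part, 69 among genes above the dim limit, 130 with a trended and robust variance, 54 with array weights, 18 with the covariate of Y-linked genes, 0 with unmoderated tests, 96 at an adjusted p under 0.1, and from 0 to 37 with 1 array left out (leaving out mutant 2 gave 0, mutant 4 gave 3, mutant 1 gave 7, wild-type replicates 2 and 3 gave 3 each and wild-type replicate 4 gave 5). It was 0 with the replicate block. Of the 4 same-numbered pairs, 2 correlated above 0.1 (0.00033 to 0.22), and 4 of 8 arrays correlated best with their own number. So few pairs cannot decide whether the shared numbers pair the samples. The median of the 33 genes was -0.047 with the brighter part of the probe sets, and from -0.029 to 0.035 with 1 array left out. The homeostatic median was 0.015 among genes above the dim limit and from -0.074 to -0.0044 with 1 array left out. The phagolysosomal median, followed after the data were seen, ran from 0.13 to 0.23. Signs turned with the median of the probe sets for P2ry13 (-0.065), Selplg (-0.11), Slco2b1 (0.032) and Itgb2 (-0.054), and with their brighter part for P2ry13 (-0.059), Olfml3 (-0.064) and Selplg (-0.058). They turned with probe sets above the dim limit for P2ry13 (-0.059), Slco2b1 (0.019), Spi1 (-0.016) and Aif1 (0.14), with array weights for Tmem119 (-0.0057), Spi1 (-0.015) and Laptm5 (0.030), and with the covariate of Y-linked genes for Selplg (-0.0028). With 1 array left out they turned within these ranges: P2ry12 -0.093 to 0.0029, P2ry13 -0.011 to 0.16, Tmem119 -0.0015 to 0.042, Selplg -0.051 to 0.068, Spi1 -0.025 to 0.11, Aif1 -0.16 to 0.011, Fcer1g -0.10 to 0.043, Laptm5 -0.087 to 0.039 and Tlr4 -0.097 to 0.015. The cause was not tested. Of the 33 genes, 10 lie below the dim limit, where these arrays can show less.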
